A study of Mus musculus with 6 samples.

Results

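SR proteins and heterogeneous nuclear ribonucleoproteins (hnRNPs) are the 2 large families of RNA-binding proteins that choose splice sites, and their genes are described here in DN3a thymocytes with and without a GATA3 transgene. Members were all entries of the deposited table whose gene symbol was Srsf followed by a number or began with Hnrn, which gave 32 genes (11 Srsf and 21 Hnrn) of 41254 symbols and 212 transcripts (68 and 144) of 100144. The names fixed the membership, not the measured values, and 0 members lay in a locus that the authors' software had failed to estimate. The transgenic group held 3 libraries labelled Tg_Cd2_GATA3, and the wild-type group held 3 libraries without the transgene. By the study's title the transgene overexpresses GATA3, a transcription factor of T cell development, and its name points to control by sequences of Cd2, a gene expressed throughout the T lineage. All mice were adult C57BL/6. DN3a cells are early thymocytes without CD4 or CD8, at the stage when the T cell receptor beta genes are assembled. The labels do not say whether each library came from a separate animal or pool, or how many founder lines were used, so each p reflects the spread of these 6 libraries, part of which may be technical.

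SR proteins bind short sequences in exons through RNA recognition motifs and recruit the spliceosome through domains rich in arginine and serine. hnRNPs coat nascent transcripts and often block the sites that SR proteins promote, so the balance of both families sets which exons are kept. Most of these genes also regulate themselves. A surplus of the protein favours inclusion of a "poison" exon with an early stop codon, or retention of an intron, and such transcripts are destroyed by nonsense-mediated decay or kept in the nucleus.

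The libraries held 39022281 to 42016334 fragments assigned to transcripts in the transgenic group and 45469459 to 46985605 in the wild-type group, and members took 1.19% to 1.25% of them in transgenic and 1.22% to 1.34% in wild-type libraries. Gata3 had 58.6, 53.6 and 61.6 CPM (counts scaled to a common library size, after TMM scaling) in transgenic libraries, against 49.1, 38.2 and 43.5 CPM in wild-type libraries. The groups did not overlap, but the log2 fold change of 0.41 ± 0.10 (SE) had an adjusted p of 0.170 by edgeR's quasi-likelihood test. The table does not say whether transgene-derived fragments were counted under Gata3. All 12 DN3a markers, Il2ra, Ptcra, Rag1 and Cd3e among them, were detected, with a summed FPKM (fragments per kilobase of transcript and per unit of depth) of 4349 to 4813 in transgenic and 4088 to 4564 in wild-type libraries. The defining B cell gene Pax5, the neutrophil gene S100a8 and the NK cell gene Ncr1 were listed at 0 in every library, and the thymic epithelial gene Foxn1 was at or below 0.03 FPKM. Other genes on these marker lists were detected in every library, among them Epcam and Ly75 (epithelial), Cd79b and Ighm (B cell) and Lyz2 (myeloid). Summed over all genes of the list, the epithelial list had 50.1 to 58.1 FPKM in transgenic and 50.9 to 52.7 FPKM in wild-type libraries. The B cell list had 84.6 to 93.4 FPKM in transgenic and 93.4 to 102.4 FPKM in wild-type libraries. The sum of the myeloid list was 17.5 to 20.1 FPKM in transgenic and 15.7 to 18.3 FPKM in wild-type libraries. Transgenic replicate 3 and wild-type replicate 1 carried 16840 and 18522 fragments of Y-linked genes, against 16 to 26 in the other libraries, so each group held 1 library with Y-linked RNA.

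Of the 32 genes, 30 were expressed at a level that could be tested, 10 Srsf and 20 Hnrn. Srsf12 and the pseudogene Hnrnpa1l2-ps did not pass the filter on low counts, and neither exceeded 0.30 FPKM in any library. By FPKM summed over transcripts, Hnrnpk stood first, a protein that binds runs of C. It had 804, 845 and 761 FPKM in transgenic libraries, against 767, 941 and 829 FPKM in wild-type libraries. Short transcripts weigh more in this sum than in fragments. Retained-intron transcripts made up a mean of 37.6% of Hnrnpk's FPKM in transgenic and 36.7% in wild-type libraries, but 12.7% and 12.0% of its fragments. The order of genes by coding transcripts alone is not given here. Hnrnpa1, a general repressor of exon inclusion, followed with 579, 632 and 578 FPKM in transgenic libraries and 586, 726 and 678 FPKM in wild-type libraries. For both genes the 2 groups overlapped. Hnrnpf and Hnrnph1, which bind runs of G, came next among the hnRNPs. Hnrnpf had 522, 531 and 528 FPKM in transgenic libraries, all below the 567, 584 and 577 FPKM of wild-type libraries. Hnrnph1 had 467, 546 and 505 FPKM in transgenic libraries and 566, 518 and 475 FPKM in wild-type libraries, with overlap.

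Srsf1, the founding member of the SR family, was the highest of its family and came after Hnrnpk and Hnrnpa1 overall. Its FPKM was 537, 611 and 547 in transgenic libraries, against 562, 631 and 635 in wild-type libraries. Srsf5 had 451, 534 and 530 FPKM in transgenic libraries, against 517, 457 and 468 FPKM in wild-type libraries. Both genes overlapped between the groups. Srsf3, the smallest SR protein, which also acts in mRNA export, had 380, 404 and 388 FPKM in transgenic libraries, against 367, 456 and 401 FPKM in wild-type libraries. Srsf2 had 295, 320 and 308 FPKM in transgenic libraries, against 310, 335 and 356 FPKM in wild-type libraries. Srsf6 had 213, 236 and 236 FPKM in transgenic libraries, against 221, 209 and 222 FPKM in wild-type libraries. All 3 overlapped on this scale.

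The remaining hnRNPs among the 8 highest lay between 193 and 377 FPKM in all 6 libraries. Hnrnpab had 311, 310 and 310 FPKM in transgenic libraries, below the 322, 337 and 377 FPKM of wild-type libraries. Hnrnpa2b1, a close relative of Hnrnpa1, had 254, 300 and 273 FPKM in transgenic libraries and 281, 312 and 307 FPKM in wild-type libraries. Hnrnpl, which binds CA repeats, had 220, 215 and 226 FPKM in transgenic libraries, against 217, 236 and 247 FPKM in wild-type libraries. Of these only Hnrnpab was separate between the groups by FPKM. In CPM it overlapped, with 610, 645 and 583 in transgenic libraries, against 609, 701 and 719 in wild-type libraries. The share of all genes separate by FPKM is not given here, for Hnrnpab as for Hnrnpf above. Hnrnpc, which binds tracts of U, had 210, 199 and 200 FPKM in transgenic libraries, against 193, 232 and 212 FPKM in wild-type libraries, with overlap. The order of the genes was mostly gradual: of 29 neighbouring pairs in the ranking of 30 genes, 7 had ranges over the 6 libraries that did not touch. Hnrnpk stood apart from Hnrnpa1 in this way, and Srsf4, the lowest at 14.6 to 18.9 FPKM in transgenic and 15.02 to 18.8 FPKM in wild-type libraries, stood apart from Hnrnpul2.

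**Figure D1:**
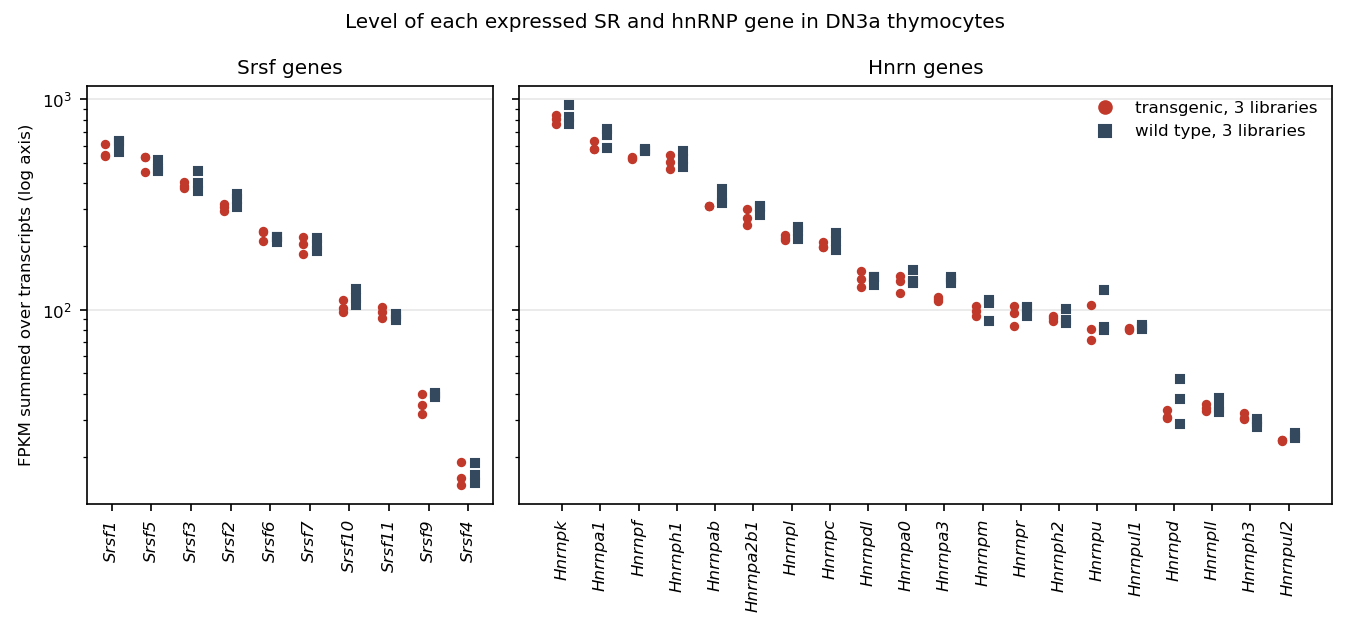
FPKM of each of the 30 expressed genes, summed over transcripts, on a log axis, with Srsf genes on the left and Hnrn genes on the right. Circles are the 3 transgenic libraries and squares the 3 wild-type libraries. Hnrnpk is highest and Srsf4 lowest, and for most genes the 2 groups lie over each other.

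No member passed the test of its summed level. By edgeR's quasi-likelihood test with Benjamini-Hochberg adjustment, 0 of 30 members were called, and of all 14653 genes 2 were called (0.0136%). Below an unadjusted p of 0.05 there were 7 members lower in transgenic and 0 higher, where all genes gave 7.7% lower and 5.71% higher. The direction leaned one way. The log2 fold change was below 0 for 27 of 30 members, against 49.8% of all genes. All 20 Hnrn genes tested and 7 of 10 Srsf genes were below 0. The median was -0.09 for members and 0.00 for all genes, and the members' values ran between -0.36 (Hnrnpd) and 0.04 (Srsf5), so each shift was small. In bulk RNA, fewer cells of a type and less RNA per cell cannot be told apart.

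The lowest p belonged to Hnrnpa3 (chr2:75659261-75669407, plus strand, mm10), a relative of Hnrnpa1 and Hnrnpa2b1. Its normalised counts were 279, 280 and 256 CPM in transgenic libraries, against 305, 342 and 340 CPM in wild-type libraries. All transgenic values lay below all wild-type values, and the log2 ratio was -0.28 ± 0.07 (SE), with an edgeR adjusted p of 0.159. Hnrnpd (chr5:99955935-99978938, minus strand), also called AUF1, binds AU-rich elements and directs mRNA decay. It had 36.1, 38.8 and 34.5 CPM in transgenic libraries, against 39.8, 49.3 and 51.6 CPM in wild-type libraries. The groups were again separate, with wild-type replicate 1 close to the transgenic values, and the log2 ratio was -0.36 ± 0.11 (edgeR adjusted p = 0.204). DESeq2 called both genes lower, Hnrnpa3 with an adjusted p of 0.00507 and Hnrnpd with 0.0392. That tool called 2.27% of all genes lower.

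Srsf10 followed, known in human cells as a splicing repressor that becomes active when it loses its phosphates. Its values were 173, 197 and 198 CPM in transgenic libraries, against 203, 214 and 239 CPM in wild-type libraries. The groups did not overlap (log2 fold change -0.21 ± 0.08, edgeR adjusted p = 0.282). Srsf1 had 850, 893 and 821 CPM in transgenic libraries, against 881, 1013 and 986 CPM in wild-type libraries, and Hnrnpa1 had 1055, 1089 and 992 CPM in transgenic libraries, against 1054, 1287 and 1240 CPM in wild-type libraries. In both genes wild-type replicate 1 lay within the transgenic range and the other wild-type libraries above it, with log2 fold changes of -0.17 ± 0.06 for Srsf1 (edgeR adjusted p = 0.301) and -0.19 ± 0.08 for Hnrnpa1 (edgeR adjusted p = 0.314). Hnrnpa2b1 had 606, 675 and 617 CPM in transgenic libraries, against 654, 738 and 735 CPM in wild-type libraries, and its log2 fold change was -0.16 ± 0.07 (edgeR adjusted p = 0.322). Without wild-type replicate 1, 4 members were called lower by edgeR, namely Hnrnpa1, Hnrnpa3, Hnrnpd and Srsf1 (adjusted p 0.0207 to 0.0460). In that fit 498 of 15022 genes were called in all, 349 of them lower, against 2 of 14653 with all libraries.

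Counting separation instead of p, 7 members had all transgenic CPM values below all wild-type values and 0 the reverse. They were Hnrnpa3, Hnrnpd, Srsf10, Hnrnpr, Hnrnpf, Srsf3 and Hnrnpul1, named after their values were seen. Of all genes, 10.1% were separate and lower and 8.73% separate and higher by CPM. Separation depended on the scale: by FPKM Hnrnpa3 and Hnrnpf stayed separate and the others named overlapped. Hnrnpd had 33.4, 31.0 and 30.8 FPKM in transgenic libraries, against 28.5, 37.6 and 46.9 FPKM in wild-type libraries. Hnrnpab and Hnrnpul2 were separate and lower by FPKM only. The members nearest to 0 were Srsf11 (0.01 ± 0.06), Hnrnph2 (-0.02 ± 0.06) and Hnrnph3 (-0.03 ± 0.08). Srsf5 and Srsf6 were the other 2 genes above 0, at 0.04 ± 0.06 and 0.03 ± 0.06.

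**Figure D2:**
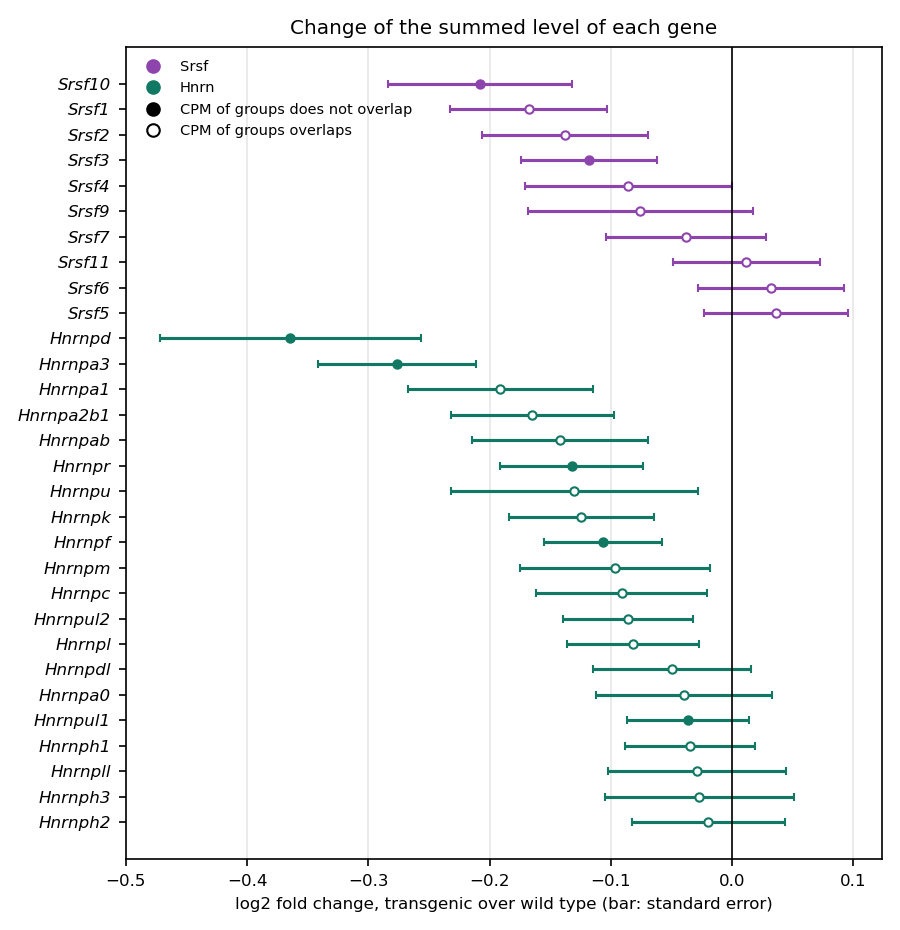
Log2 fold change of each gene's summed level, transgenic over wild type, with its standard error, for 10 Srsf genes (above) and 20 Hnrn genes (below). Filled points mark the 7 genes whose CPM values do not overlap between the groups, all left of 0.

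The lean was shared with other genes of the splicing machinery and with genes of cell division. These lists were written with earlier results of these data known. Of 36 core spliceosome genes 34 were below 0 (median -0.10) and 0 were called by edgeR, with 6 lower at an unadjusted p under 0.05 and 1 called by DESeq2. The 2 of lowest p were Snrpd1, a ring protein of the spliceosomal particles, at 112, 118 and 105 CPM in transgenic against 131, 155 and 151 CPM in wild-type libraries, and Sf3a2, of the U2 particle, at 23.3, 25.2 and 23.1 CPM in transgenic against 26.5, 32.0 and 33.9 CPM in wild-type libraries. Of 20 cell division genes all 20 were below 0 (median -0.46). By edgeR 0 were called, with all 20 at an unadjusted p under 0.05, and DESeq2 called 18 lower. Cdc45, a replication factor, had 68.8, 70.4 and 63.5 CPM in transgenic libraries, against 85.01, 100.2 and 99.9 CPM in wild-type libraries, and Rrm2, which makes deoxynucleotides, had 146, 149 and 135 CPM in transgenic libraries, against 179, 212 and 230 CPM in wild-type libraries.

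Other partners of the SR proteins did not lean in that way. Of 16 SR-related proteins 6 were below 0 (median 0.03), and of the 9 kinases and phosphatases that act on SR proteins 4 were (median 0.01), with 0 called in either list by edgeR or DESeq2. At an unadjusted p under 0.05 edgeR gave 1 SR-related protein, Pnn, and 0 of the kinases and phosphatases. Pnn, an exon junction protein, had 184, 180 and 178 CPM in transgenic libraries, against 190, 200 and 204 CPM in wild-type libraries. The kinase Clk4 had 146, 138 and 141 CPM in transgenic libraries, against 140, 134 and 126 CPM in wild-type libraries. Of 29 other splicing regulators 22 were below 0 (median -0.04), with 0 called by edgeR, 5 lower at an unadjusted p under 0.05 and 2 called by DESeq2. Mbnl3 had 64.4, 65.1 and 70.1 CPM in transgenic against 79.0, 75.9 and 89.9 CPM in wild-type libraries, and Raly had 399, 410 and 380 CPM in transgenic against 440, 465 and 448 CPM in wild-type libraries. Of 15 genes of nonsense-mediated decay 8 were below 0 (median -0.00), with 0 called by edgeR and 1 by DESeq2, while 3 fell on each side of 0 among those with an unadjusted p under 0.05. Its lowest p values were those of Magoh, at 68.6, 68.9 and 66.6 CPM in transgenic against 78.0, 86.0 and 79.9 CPM in wild-type libraries, and Eif4a3, at 183, 189 and 180 CPM in transgenic against 201, 227 and 208 CPM in wild-type libraries, both of the exon junction complex.

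The mean deviation of log2(CPM + 0.5) from the 6-library mean was -0.04, -0.03 and -0.10 for the Hnrn genes in transgenic libraries, against -0.05, 0.12 and 0.09 in wild-type libraries. For cell division genes it was -0.19, -0.11 and -0.31 in transgenic libraries, against -0.00, 0.30 and 0.31 in wild-type libraries. In both lists wild-type replicate 1 was the lowest wild-type library, and for the Hnrn genes it lay within the transgenic range. The Srsf genes gave -0.12, 0.02 and -0.01 in transgenic libraries, against -0.03, 0.06 and 0.08 in wild-type libraries. Genes of heat shock and early response lay on the other side, with 11 of 13 above 0 (median 0.36) and 10 of them at an unadjusted p under 0.05, but 0 called by edgeR. DESeq2 called 2 higher and 1 lower. The transcription factor gene Jund had 111, 102 and 125 CPM in transgenic libraries, against 82.3, 84.2 and 76.0 CPM in wild-type libraries, and the heat shock gene Hspa1b had 130, 80.4 and 259 CPM in transgenic libraries, against 40.9, 66.1 and 32.2 CPM in wild-type libraries. Markers of later alpha beta thymocytes, such as Cd4, Cd8a and Cd5, summed to 12.1 to 15.7 FPKM in transgenic libraries, against 19.1 to 20.6 FPKM in wild-type libraries, with 5 of 6 below 0 and 0 called by edgeR (3 lower at an unadjusted p under 0.05, 3 called by DESeq2). The part of cell division, the early response and later thymocytes in the members' lean was not tested.

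**Figure D3:**
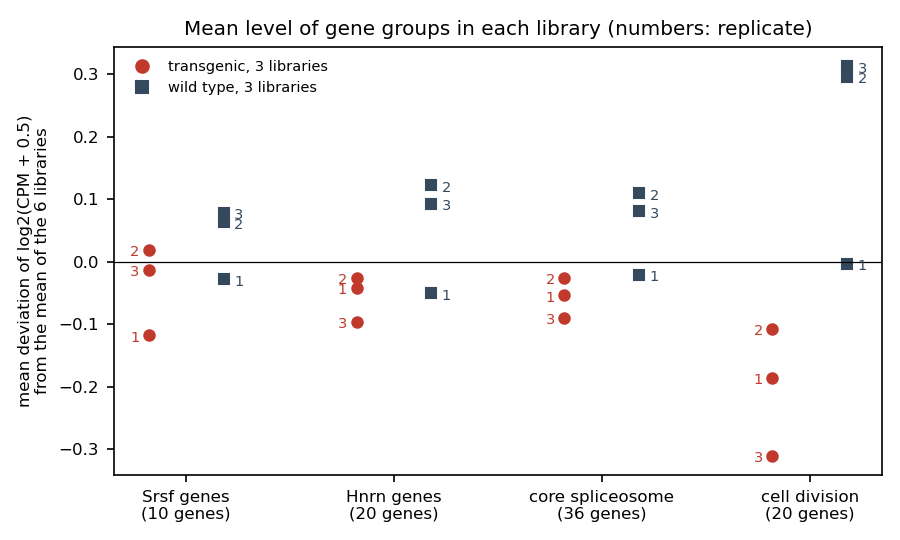
Mean deviation of log2(CPM + 0.5) from the mean of the 6 libraries for the Srsf genes, the Hnrn genes, core spliceosome genes and cell division genes, with replicate numbers beside the points. Circles are transgenic and squares wild type. Wild-type replicate 1 lies below the other 2 wild-type libraries in every group shown.

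At the level of single transcripts, part of the members' RNA was assigned to transcripts that do not encode the full protein. The size of that part depended on the unit, FPKM or fragments, as given below. By GENCODE annotation the 212 transcripts comprised 108 protein-coding, 50 retained-intron, 29 other processed, 23 nonsense-mediated decay transcripts and 1 pseudogene transcript, and 1 was not matched. Hnrnpk alone had 21. The share of a transcript is its FPKM divided by that of its gene, and 209 transcripts had one, since Srsf12 and Hnrnpa1l2-ps were at 0 in some libraries. The libraries were made from total RNA without poly(A) selection, so retained-intron transcripts in the cell and unspliced precursors cannot be told apart.

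By FPKM share, a nonsense-mediated decay transcript was the largest of all in Srsf6 and Srsf4, and in Srsf3 it was second. Their stop codons, like that of a smaller decay transcript of Hnrnpll, lie in an exon that the main coding transcript skips. These 4 exons are shown from their first base to the early stop, which is in capitals, as RNA-sense DNA cut from the GENCODE M21 transcripts. The exons lie on GRCm38 at chr17:29039454-29039909 (plus strand, Srsf3-201, 456 bases), chr4:131884276-131884482 (plus, Srsf4-203, 207 bases), chr2:162932815-162933082 (plus, Srsf6-201, 268 bases) and chr17:80044940-80045022 (minus, Hnrnpll-203, 83 bases).
Srsf3: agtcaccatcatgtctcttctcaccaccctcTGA
Srsf4: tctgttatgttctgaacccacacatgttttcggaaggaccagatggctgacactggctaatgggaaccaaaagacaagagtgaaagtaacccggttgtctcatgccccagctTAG
Srsf6: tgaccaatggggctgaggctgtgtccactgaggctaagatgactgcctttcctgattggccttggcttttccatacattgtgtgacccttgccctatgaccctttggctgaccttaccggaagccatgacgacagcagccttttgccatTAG
Hnrnpll: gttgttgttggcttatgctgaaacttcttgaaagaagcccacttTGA
The stop falls 34 bases into the exon in Srsf3, 115 in Srsf4, 152 in Srsf6 and 47 in Hnrnpll, and 3, 4, 4 and 7 further exons follow, the arrangement that triggers decay.

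The Srsf6 decay transcript, Srsf6-201, took 63.6%, 59.8% and 64.8% of the gene's FPKM in transgenic libraries, against 63.2%, 55.3% and 58.2% in wild-type libraries. The Srsf3 decay transcript, Srsf3-201, took 26.4%, 28.97% and 29.5% in transgenic libraries, against 29.03%, 21.5% and 27.9% in wild-type libraries. Srsf4-204, which begins within the exon shown for Srsf4-203 and holds the same stop, took 40.7%, 44.4% and 44.4% in transgenic libraries, against 32.8%, 44.2% and 44.7% in wild-type libraries. It is short (980 bases), and its mean share of the gene's fragments was 22.2% in transgenic and 20.1% in wild-type libraries. The coding transcript of Srsf4 took 38.5% and 46.1% of fragments. In each of the 3 decay transcripts the groups overlapped, with mean FPKM shares 3.80 (Srsf6-201), 2.15 (Srsf3-201) and 2.63 (Srsf4-204) percentage points higher in transgenic libraries. The smaller decay transcript Hnrnpll-203 varied more between libraries, with 11.5%, 8.38% and 7.85% in transgenic and 12.7%, 3.595% and 14.2% in wild-type libraries. Over the 14 genes with this class, the mean decay share was higher in transgenic for 8 and lower for 6, against 50.7% of all genes higher. In 0 of them were the groups separate, where all genes gave 5.43% higher and 4.08% lower.

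Retained introns were the other large class. By FPKM share Srsf1-203 was the largest transcript of Srsf1, with 30.4%, 39.2% and 31.3% in transgenic libraries, against 30.3%, 35.9% and 31.3% in wild-type libraries. It is 759 bases long and took a mean of 9.4% of the gene's fragments in transgenic and 8.9% in wild-type libraries. Srsf5-212 likewise led its gene by FPKM, with 29.1%, 27.6% and 26.0% in transgenic libraries, against 22.1%, 30.1% and 26.5% in wild-type libraries. Hnrnpk-217 took 17.8%, 15.8% and 15.9% in transgenic libraries, against 14.2%, 17.1% and 15.3% in wild-type libraries. All of these overlapped between the groups. Srsf2-203 took 14.6%, 18.9% and 18.6% in transgenic libraries, against 15.4%, 14.4% and 14.0% in wild-type libraries. Hnrnpl-205 took 10.9%, 14.3% and 14.5% in transgenic libraries, against 13.5%, 12.5% and 11.6% in wild-type libraries. Srsf11-203 took 9.97%, 14.2% and 12.3% in transgenic libraries, against 15.2%, 12.6% and 11.7% in wild-type libraries. These 3 overlapped as well. By fragments the mean shares in transgenic and wild-type libraries were 39.5% and 37.7% for Srsf5-212 and 17.9% and 15.1% for Srsf2-203. They were 6.0% and 5.6% for Hnrnpk-217, 4.8% and 4.6% for Hnrnpl-205, and 4.9% and 5.2% for Srsf11-203.

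Summed per gene, the retained-intron share was higher on average in transgenic for 15 of 16 members, against 61.8% of all 3895 genes with this class. The members' median difference was 1.43 percentage points, and that of all genes 0.76. Their median share was 23.4%, 22.2% and 25.1% in transgenic libraries, against 19.8%, 18.8% and 19.2% in wild-type libraries. In 3 genes the transgenic libraries were all higher. Hnrnph3, a relative of Hnrnph1, had 37.3%, 46.3% and 38.5% in transgenic libraries, against 36.4%, 31.0% and 28.4% in wild-type libraries. Hnrnpl had 42.7%, 45.9% and 46.5% in transgenic libraries, against 42.2%, 37.4% and 40.7% in wild-type libraries. Hnrnpll had 26.6%, 25.5% and 28.5% in transgenic libraries, against 21.2%, 23.0% and 21.8% in wild-type libraries. Only Hnrnpu, a nuclear scaffold protein, was separate and lower, with 12.0%, 14.2% and 14.2% in transgenic libraries and 16.0%, 14.6% and 15.3% in wild-type libraries. Of all genes 8.93% were separate and higher and 2.62% separate and lower. These separations are by FPKM share. By share of fragments Hnrnpl and Hnrnpu overlapped, Hnrnph3 and Hnrnpll stayed separate, and Srsf3 was separate and higher as well. The share of all genes separate by fragments is not given here for this class.

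The protein-coding share was correspondingly lower. Among the 20 members with coding transcripts and another class, 18 had a lower mean coding share in transgenic, against 60.3% of all 5454 such genes. The exceptions were Hnrnpu and Srsf9. The median difference was -3.16 percentage points for members and -0.82 for all genes, and the members' median coding share was 56.5%, 54.0% and 57.1% in transgenic libraries, against 60.3%, 59.6% and 59.8% in wild-type libraries. Over all genes the medians were 78.2%, 78.4% and 77.9% in transgenic libraries, against 78.6%, 79.3% and 79.3% in wild-type libraries. The shift of the coding share was thus seen across the table, at a smaller size. In the members it kept its size when wild-type replicate 1 was left out (-3.76) and was smallest without wild-type replicate 2 (-2.25), a check chosen after seeing the data.

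Separate and lower by FPKM were 3 members, where all genes gave 8.36%, and separate and higher was 1, where all genes gave 3.06%. By fragments 5 members were separate and lower, with Srsf2 and Hnrnph1 added, and 1 separate and higher. All 5454 genes gave 482 lower and 167 higher by fragments. The FPKM shares follow. Srsf3, whose single coding transcript is Srsf3-202 (gene at chr17:29032628-29043373, plus strand), had a coding share of 42.5%, 40.7% and 38.7% in transgenic libraries, against 45.3%, 47.9% and 45.9% in wild-type libraries. Hnrnpd had 49.7%, 42.3% and 48.6% in transgenic libraries, against 62.8%, 60.8% and 54.8% in wild-type libraries. Hnrnpl had 54.2%, 52.1% and 52.3% in transgenic libraries, against 56.5%, 62.4% and 57.5% in wild-type libraries. Transgenic libraries were below every wild-type library in all 3 genes. Srsf9 was the reverse, with 99.0%, 99.5% and 99.1% in transgenic libraries, against 95.8%, 83.2% and 97.0% in wild-type libraries, where wild-type replicate 2 set most of the difference.

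None of these shifts passed a test. The counts of each class within its gene were compared with limma's voom and diffSplice, which called 0 of 57 member classes and 2 of 13316 over all genes (0.015%). At an unadjusted p under 0.05 there were 3 member classes lower and 3 higher, where all genes gave 4.09% and 4.12%. The lowest p was that of Hnrnph1, whose coding class had a log2 fold change against its other class of -0.49 ± 0.12 (SE, diffSplice adjusted p = 0.235). Its coding share was 21.1%, 15.4% and 16.3% of FPKM in transgenic libraries, against 19.2%, 21.6% and 24.8% in wild-type libraries, so that transgenic replicate 1 lay within the wild-type range. Without transgenic replicate 1 this change was called (-0.67, diffSplice adjusted p = 0.0292), in a fit that called 10 of 14134 classes. The coding class of Hnrnph1 holds Hnrnph1-202, at 2211, 0 and 238 fragments in transgenic libraries. Its other class holds Hnrnph1-205, at 0, 2611 and 2276 fragments in the same libraries. How far this uneven split of fragments sets the class change was not tested. With all libraries, the coding class of Srsf3 came next by p, at -0.34 ± 0.10 (diffSplice adjusted p = 0.339).

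**Figure D4:**
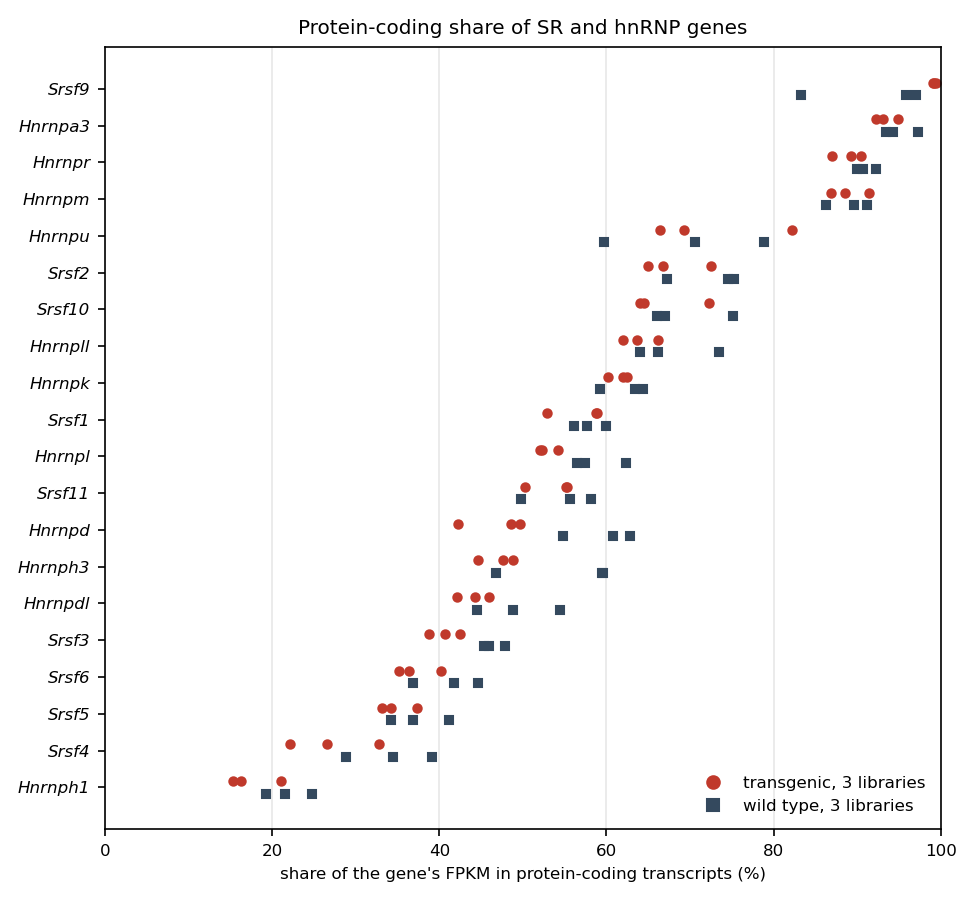
Protein-coding share of each gene's FPKM, in percent, for the 20 members with more than 1 transcript class. Circles are the 3 transgenic and squares the 3 wild-type libraries. The circles lie wholly to the left of the squares in Srsf3, Hnrnpd and Hnrnpl, and wholly to the right in Srsf9.

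**Figure D5:**
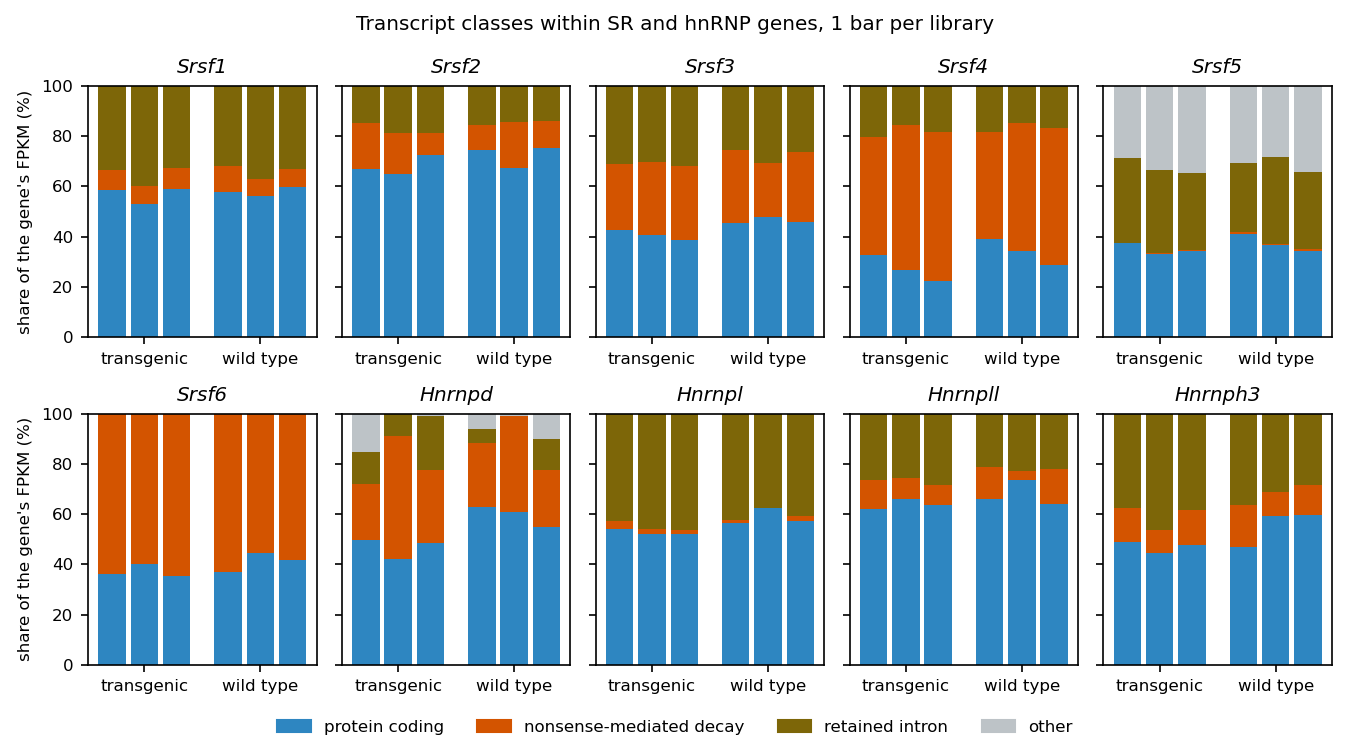
Make-up of 10 members by annotated transcript class, in percent of the gene's FPKM, with the 3 transgenic libraries on the left and the 3 wild-type libraries on the right of each panel. Decay transcripts are the largest class in every Srsf6 bar, and retained introns make up most of the remainder in Hnrnpl.

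Single transcripts gave 1 call among 181 members tested for their share within the gene, where 25 of 31349 transcripts were called overall (0.0797%). It was the coding transcript Hnrnph1-202, at 5.53%, 0% and 0.61% of FPKM in transgenic libraries, against 3.41%, 4.65% and 5.30% in wild-type libraries. The fitted log2 fold change against the gene's other transcripts was -4.64 ± 1.05 (diffSplice adjusted p = 0.04997). The groups overlapped, since the highest value of all was that of transgenic replicate 1, and the estimate rested on 2211, 0 and 238 fragments in transgenic libraries, against 1769, 2230 and 2359 in wild-type libraries. Another transcript of the gene, Hnrnph1-205, was listed at 0, 2611 and 2276 fragments in transgenic libraries and at 4, 6 and 0 in wild-type libraries. In all, 7 member transcripts had at least 200 fragments in 1 library and under 5 in another. The call was lost under all 10 alternatives that kept the transcript, and a minimum share of 5% removed it.

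Below an unadjusted p of 0.05 there were 7 member transcripts with a lower and 3 with a higher share, where all transcripts gave 3.57% and 3.52%. Srsf11-204 had 0.94%, 7.12% and 1.97% in transgenic libraries, against 2.48%, 10.1% and 7.30% in wild-type libraries, and was called when wild-type replicate 1 was left out (adjusted p = 0.00459, against 0.215 with all libraries). The decay transcript Hnrnpl-213 had 3.05%, 1.99% and 1.24% in transgenic libraries, against 1.35%, 0.25% and 1.80% in wild-type libraries. Both overlapped between the groups, and neither was called with all libraries. Hnrnph3-201 had 6.42%, 10.2% and 11.2% in transgenic libraries, against 11.2%, 19.2% and 12.7% in wild-type libraries, with the nearest values of the groups almost equal. Srsf5-201, the main coding transcript of that gene, had 27.2%, 21.7% and 23.3% in transgenic libraries, against 32.1%, 26.6% and 23.7% in wild-type libraries. The 2 coding transcripts of Hnrnph2 mirrored each other: Hnrnph2-201 had 41.0%, 28.0% and 46.3% in transgenic libraries, against 48.8%, 44.3% and 45.3% in wild-type libraries, and Hnrnph2-203 had 45.6%, 58.01% and 43.6% in transgenic libraries, against 37.9%, 44.5% and 42.3% in wild-type libraries. Both turned on transgenic replicate 2. Srsf3-202 completes these 8, at -0.34 ± 0.12 (diffSplice adjusted p = 0.451).

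By level, 0 of 184 member transcripts were called by edgeR, as were 0 of all 38358 transcripts (0%). At an unadjusted p under 0.05 there were 13 lower and 0 higher, where all transcripts gave 3.23% lower and 2.37% higher. DESeq2 called 1 member transcript, Hnrnpf-202, and 0.639% of all transcripts lower. This coding transcript of Hnrnpf had 4073, 3776 and 3734 fragments in transgenic libraries, against 5248, 5292 and 5290 in wild-type libraries, which were deeper. Its log2 fold change was -0.28 ± 0.05 by DESeq2 (adjusted p = 2.75e-05) and -0.27 ± 0.05 by edgeR (adjusted p = 0.679). Its share of the gene was 7.37%, 7.28% and 7.40% in transgenic libraries, against 8.04%, 7.74% and 8.21% in wild-type libraries. The authors' deposited table held tests of 197 member transcripts with 0 marked significant and 1 at a p under 0.05, Hnrnpd-203. Its smallest q for a member was 0.998, while 111 of 44416 transcripts over the whole of the authors' deposited table were marked significant.

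Where a gene had a single dominant coding transcript, it stayed so. Srsf7 is listed with 1 transcript, Hnrnpa1-202 took 97.0%, 96.8% and 96.9% in transgenic and 97.2%, 97.0% and 97.0% in wild-type libraries, and Hnrnpc-201 took 99.48% to 100% over the 6 libraries. Apart from Srsf3-202, described above, the leading transcripts of the other named genes overlapped between the groups by FPKM share. Hnrnpk-201 had 39.3%, 42.6% and 39.5% in transgenic libraries, against 44.5%, 42.1% and 42.1% in wild-type libraries. Hnrnpf-201 had 35.1%, 40.5% and 35.1% in transgenic libraries, against 31.8%, 40.2% and 36.6% in wild-type libraries. Srsf2-201 had 63.9%, 63.7% and 67.0% in transgenic libraries, against 70.9%, 65.4% and 73.3% in wild-type libraries. All 3 are coding transcripts, and in none of them were the libraries of the groups separate by FPKM share. By fragments Srsf2-201 was separate, at 74.4%, 74.8% and 73.2% in transgenic libraries, against 77.1%, 77.7% and 79.8% in wild-type libraries. The share of all transcripts separate by fragments is not given here. Srsf11-202 had 44.9%, 43.6% and 46.1% in transgenic libraries, against 44.2%, 38.4% and 46.6% in wild-type libraries. Libraries of 1 group lay further apart for Srsf10-204, with 25.9%, 38.9% and 32.8% in transgenic and 34.0%, 34.3% and 31.2% in wild-type libraries, and for Srsf9-201, with 94.8%, 96.6% and 97.5% in transgenic and 95.8%, 80.1% and 96.4% in wild-type libraries. Hnrnpl-202 had 37.2%, 36.5% and 31.2% in transgenic libraries, against 37.98%, 38.3% and 36.0% in wild-type libraries. Hnrnpab-201 had 49.4%, 56.6% and 50.8% in transgenic libraries, against 49.5%, 53.4% and 49.98% in wild-type libraries. Neither hnRNP transcript separated the groups. The leading transcript of Hnrnph1 is a processed transcript without a coding frame, Hnrnph1-204, with 18.9%, 14.8% and 16.3% in transgenic libraries, against 14.4%, 18.7% and 18.4% in wild-type libraries. Hnrnpa2b1-203 had 41.1%, 43.4% and 40.4% in transgenic libraries, against 41.2%, 45.2% and 37.6% in wild-type libraries.

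Hnrnpll is an hnRNP with a known target in T cells. In mouse and human lymphocytes it represses the variable exons of Ptprc, which encodes the phosphatase CD45. Hnrnpll had 97.3, 89.2 and 86.1 CPM in transgenic libraries, against 85.5, 92.5 and 99.97 CPM in wild-type libraries, a log2 ratio of -0.03 ± 0.07 (edgeR adjusted p = 0.912). Ptprc had 1101, 1066 and 1126 CPM in transgenic libraries, against 1137, 1011 and 981 CPM in wild-type libraries (log2 fold change 0.07 ± 0.06, edgeR adjusted p = 0.674). Both genes overlapped between the groups. Among its coding transcripts, Ptprc-207 holds 3 variable exons of 129, 147 and 141 bases that Ptprc-203 and Ptprc-204 lack. Ptprc-207 took 1.89%, 1.49% and 1.68% of the coding FPKM in transgenic libraries, against 2.19%, 1.70% and 1.98% in wild-type libraries, and Ptprc-203 took 82.7%, 86.9% and 84.3% in transgenic libraries, against 82.3%, 88.0% and 89.2% in wild-type libraries. Ptprc-204, which also lacks an exon of 72 bases that Ptprc-203 keeps, took 15.4%, 11.7% and 14.0% in transgenic libraries, against 15.5%, 10.3% and 8.85% in wild-type libraries. Ptprc-203 was thus the largest coding form in every library, and for all 3 forms the groups overlapped. As in 15 of 16 members, the mean retained-intron share of Ptprc was higher in transgenic libraries, at 33.0%, 35.6% and 34.8%, against 32.2%, 29.9% and 32.0% in wild-type libraries. Its groups did not overlap, as in 3 of the 16 members and 8.93% of all genes with this class, separate and higher.

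GATA factors bind the word GATA with A or T before it and A or G after it. In RefSeq promoter windows of GRCm38, 250 bases before to 50 after each start, 6 of the 29 members with a window held at least 1 of them on either strand (20.7%), against 33.0% of 27025 genes. They were Hnrnpf, Hnrnph1, Hnrnph2, Hnrnpl, Hnrnpr and Srsf1. A word in a window is a description of the sequence and not a binding site.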

How the data were processed

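RNA-seq of total RNA, treated with Ribo-Zero Gold against ribosomal RNA per the labels' protocols, was analysed for 3 transgenic and 3 wild-type libraries. The submitters' processing notes name TopHat2, Cuffdiff and mm10. No version, annotation or strand setting is named there, so antisense or near-identical genes may share fragments. Per the file headers, the authors deposited for every transcript and library an expected count of fragments (RawFrags), and beside it the FPKM. Their own test is deposited beside these, as log2 fold change, p-value and q-value. The number of per-sample columns of no labelled sample was 0. The members, lists and alternatives were chosen with earlier results of these data known.

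Expected counts were summed per symbol and rounded. The 197 genes with a failed locus (466 transcripts) were left out. Genes and transcripts kept by filterByExpr (minimum count 10, minimum total 15) were tested with edgeR 4.0.16 (R 4.3.3), TMM scaling, no covariate, two-sided, Benjamini-Hochberg adjustment over all features and a threshold of 0.05. Shares within a gene were tested with limma 3.58.1 (voom, diffSplice) on genes with at least 2 features. The uncertainty of dividing fragments among transcripts is not in these tests. Biotypes and positions come from GENCODE M21 (GRCm38), which matched 97.3% of transcript IDs and 211 of 212 members. Named were the 5 Srsf and 8 Hnrn genes of highest FPKM, called members, and the 6 genes and 8 transcripts of lowest p. Also named were leading and large decay or retained-intron transcripts (at least 10%), Hnrnpll and Ptprc. From each list, CPM in every library is given for at most 2 genes. Replicates were not duplicates, with a chi-square per gene of 15.8 to 41.3 between them. The depth keeps counting error small for all but rare transcripts. Alternatives included DESeq2 1.42.0, FPKM in place of counts (limma with a pseudocount of 0.1 or 1), median-of-ratios scaling, other filters, edgeR's diffSpliceDGE, the replicate number as a block, and leaving out libraries. The fits were tested on simulated data.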

Additional observations from a re-analysis of the deposited data

How the results depend on the processing

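The number of members called by level was 0. It became 2 with DESeq2 and 3 without both libraries with Y-linked RNA. Leaving out each library in turn gave 0 to 4, the highest without wild-type replicate 1. Calls over all genes rose too, from 2 to 497 with DESeq2, 260 without the Y-linked libraries and 498 without wild-type replicate 1. For single transcripts by level the number of members called was 0, and 1 with DESeq2, and leaving out libraries gave 0. The 1 transcript called by share became 0 with a mean of at least 50 fragments, a mean share of at least 5%, edgeR's diffSpliceDGE, the replicate block, or without both libraries with Y-linked RNA, and leaving out each library gave 0 to 1, Srsf11-204 where it was 1. Class shares gave 0 calls, and 0 to 2 when a library was left out. The 2 were both of Hnrnph1, without transgenic replicate 1, where 10 classes were called over all genes. The replicate number did not pair the libraries: deviations of same-numbered libraries correlated at 0.18, 0.14 and 0.00, and the replicate block left 0 members called by level, of 14 genes called in all. The block calls for the members were 0 in the other tests too. The number of members below 0 stayed between 25 and 29 and their median log2 fold change between -0.13 and -0.06 over all alternatives. Members at an unadjusted p under 0.05 by level numbered 7 by edgeR and 2 by limma on FPKM with either pseudocount, all lower. Of 11987 genes tested by limma, 682 and 690 were lower at that p, for pseudocounts of 0.1 and 1. The direction of 2 uncalled genes turned when a library was left out, Srsf6, which ranged between -0.0115 (without transgenic replicate 2) and 0.076, and Hnrnpll, which ranged between -0.0828 and 0.0292, above 0 without transgenic replicate 3 (0.0086) or wild-type replicate 3. Under alternatives, 209 values of named gene levels, 74 of named transcript shares and 41 of named class shares kept direction and call. In these, 12 gained a call and 10 lost one, all 10 of Hnrnph1-202. For 23 leading or large transcripts, the share difference by fragments lay within the libraries' standard deviation of that by FPKM. Its sign still turned in Hnrnpf-201 (0.707 percentage points by FPKM, -0.494 by fragments) and Srsf10-204 (-0.579 and 0.026). The coding share was lower in 18 members by fragments as by FPKM, with a median of -3.05, and in 15 to 18 when libraries were left out. Fragments are split among overlapping transcripts by the authors' software, and the error of that split, on which small shares depend, was not measured.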
